A study of Homo sapiens with 4 samples.

Results

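The broad regions are those of 2000 bp or more in a deposited table of HNF4A ChIP-seq regions, chosen by width and position alone. Of the 5326 regions in the authors' deposited table of HNF4A at high against low glucose, 543 on chromosomes 1 to 22 and X met that limit, after leaving out a stretch of chromosome 7 from 115.8 to 116.5 Mb. Another 12 regions of that width lay in the left-out stretch of chromosome 7 and 4 on other contigs, and 4767 regions were narrower. Chromatin immunoprecipitation with sequencing (ChIP-seq) was done in HCCLM3, an established human hepatocellular carcinoma cell line, with an antibody to HNF4A and with nonspecific IgG as the background. There were 4 libraries, 1 per group: HNF4A at high glucose, IgG at high glucose, HNF4A at low glucose and IgG at low glucose. HCCLM3 lines that stably overexpress a cDNA were made with a lentiviral vector (pCDH), per the labels' protocols, but the labels do not name the cDNA, and no library is tied to a line. The culture protocol names high glucose DMEM for all 4 libraries, and the sources used here do not state the glucose concentrations. No difference below has a replicate check, and no test of conditions was possible.

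HNF4A is a nuclear receptor that binds DNA as a homodimer at closely spaced direct repeats, whose best known form carries the core CAAAG, and it maintains the identity of hepatocytes. It regulates genes of lipoprotein, bile acid and glucose metabolism and of coagulation. A single factor bound at a single site usually gives a ChIP-seq region much narrower than a kilobase, so a region of several kilobases holds reads from well beyond 1 site. IgG reads show where chromatin is recovered without a specific antibody.

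The promoters of 5 genes closest to broad regions are shown because those regions had the 3 highest and the 2 lowest mean HNF4A over IgG ratios, over both glucose levels, among genes with exactly 1 promoter in the RefSeq table on the chromosomes from which sequence is shown. Each is the 250 bases before the gene's start in RefSeq on GRCh38.p14, 5′ to 3′ on the plus strand. Capitals mark CAAAG, searched on both strands, which is part of the longer motif CAAAGTCCA. RPRD2, IGFBP4 and SULT1C2 belong to the high end, and MUC12 and SRGAP1 to the low end.
RPRD2 (chr1:150363897-150364146): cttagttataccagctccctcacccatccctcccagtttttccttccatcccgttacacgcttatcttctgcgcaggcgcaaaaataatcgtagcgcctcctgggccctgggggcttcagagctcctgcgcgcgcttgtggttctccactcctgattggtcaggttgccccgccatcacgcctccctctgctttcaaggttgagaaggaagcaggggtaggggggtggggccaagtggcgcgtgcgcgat
IGFBP4 (chr17:40443200-40443449): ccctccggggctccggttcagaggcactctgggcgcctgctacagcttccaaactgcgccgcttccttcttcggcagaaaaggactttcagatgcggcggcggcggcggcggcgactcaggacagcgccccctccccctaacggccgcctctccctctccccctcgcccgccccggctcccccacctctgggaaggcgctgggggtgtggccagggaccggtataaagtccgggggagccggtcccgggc
SULT1C2 (chr2:108288645-108288894): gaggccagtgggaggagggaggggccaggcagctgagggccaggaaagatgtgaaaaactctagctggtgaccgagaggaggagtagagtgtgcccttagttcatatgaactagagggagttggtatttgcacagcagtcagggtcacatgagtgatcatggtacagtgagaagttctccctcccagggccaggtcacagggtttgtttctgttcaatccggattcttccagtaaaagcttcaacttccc
MUC12 (chr7:100969315-100969564): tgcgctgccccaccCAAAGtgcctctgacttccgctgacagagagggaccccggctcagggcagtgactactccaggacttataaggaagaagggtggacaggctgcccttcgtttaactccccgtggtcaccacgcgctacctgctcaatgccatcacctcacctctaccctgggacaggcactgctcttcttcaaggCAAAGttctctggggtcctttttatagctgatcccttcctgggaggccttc
SRGAP1 (chr12:63844450-63844699): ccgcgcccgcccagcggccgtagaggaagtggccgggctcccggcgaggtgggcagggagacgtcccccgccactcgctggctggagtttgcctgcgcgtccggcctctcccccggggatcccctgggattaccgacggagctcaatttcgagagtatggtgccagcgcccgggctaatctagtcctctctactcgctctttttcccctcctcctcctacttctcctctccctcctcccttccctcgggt
CAAAG was found 2 times in the MUC12 promoter and 0 times in the other 4, and CAAAGTCCA in none of the 5. Of all 35116 promoters in the table, 42.1% held CAAAG and 0.325% held CAAAGTCCA in the same 250 bases. GC content was 59.6% for RPRD2, 71.6% for IGFBP4, 52.4% for SULT1C2, 57.6% for MUC12 and 67.2% for SRGAP1, against a median of 58% over all promoters. The region files are on hg19 and the promoters on GRCh38.p14, so whether a region covers its printed promoter was not determined. Only 343 of the 501 distinct closest genes (68.5%) had a promoter in the table, under the 80% needed, so a check of motifs or base composition over the whole set is void.

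Reads were recovered from the deposited levels as whole numbers, and each ratio divides reads that were scaled by relative library size (HNF4A 1.1 at high and 1 at low glucose, IgG 0.993 and 0.982). The range after a ratio is its exact 95% counting interval, which covers counting error between 2 libraries only. Region coordinates are hg19. Genes are those that the authors list as closest, which does not show regulation. The comparisons share libraries: HNF4A at high glucose enters both its ratio over IgG and the comparison of glucose levels.

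Broad regions held more reads than other regions but a smaller excess of HNF4A over IgG. Their width ran from 2001 to 7910 bp with a median of 2480 bp, against 1030 bp over all 5326 regions. The median broad region held 133 HNF4A and 87 IgG reads at high glucose, and 93 and 59 at low glucose. Over all regions the medians were 50, 26, 35 and 18. Per kb of region, the median HNF4A level of broad regions at high glucose was 51.7 reads, close to the 45.8 of all regions, whereas their IgG level was 34.6 against 24.9. At low glucose the HNF4A levels were 36.9 and 33.1 reads per kb and the IgG levels 23.3 and 16.7. Broad regions thus lay above all regions by more in IgG than in HNF4A at both glucose levels.

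The median log2 ratio of HNF4A over IgG in broad regions was 0.43 at high and 0.58 at low glucose, against 0.79 and 0.94 over all regions. The part of the higher IgG level in this lower ratio was not tested. HNF4A lay above IgG in 468 broad regions (86.2%) at high and 497 (91.5%) at low glucose, against 84.2% and 91.5% of all. HNF4A was at least 2-fold above IgG in 86 broad regions (15.8%) at high glucose, where 41.6% of all regions were. At low glucose the count was 100 (18.4%), where 46.8% of all regions were. Both conditions were met by 42 broad regions (7.73%), against 31.4% of all. None was 2-fold below IgG at either level, against 1.05% and 0.488% of all regions. Because broad regions hold more reads their intervals were narrower, with a median span of 0.82 on the log2 scale at high glucose against 1.49 over all regions. The whole interval lay above 0 in 288 broad regions (53.0%) at high and 333 (61.3%) at low glucose, against 55.2% and 56.2% of all, and in 226 (41.6%) at both, against 41.1% of all. In the authors' deposited table, p was under 0.05 with HNF4A higher in 26 broad regions (4.79%) at high glucose, against 4.96% of all, and in 18 (3.31%) at low glucose, against 3.04%. It was under 0.05 with HNF4A lower in 0 broad regions of the authors' deposited tables, against 0.0188% of all at high and 0% at low glucose. Their lowest false discovery rate in the authors' deposited tables was 0.848 at high and 0.820 at low glucose, and no region, broad or other, was under 0.05.

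**Figure D1:**
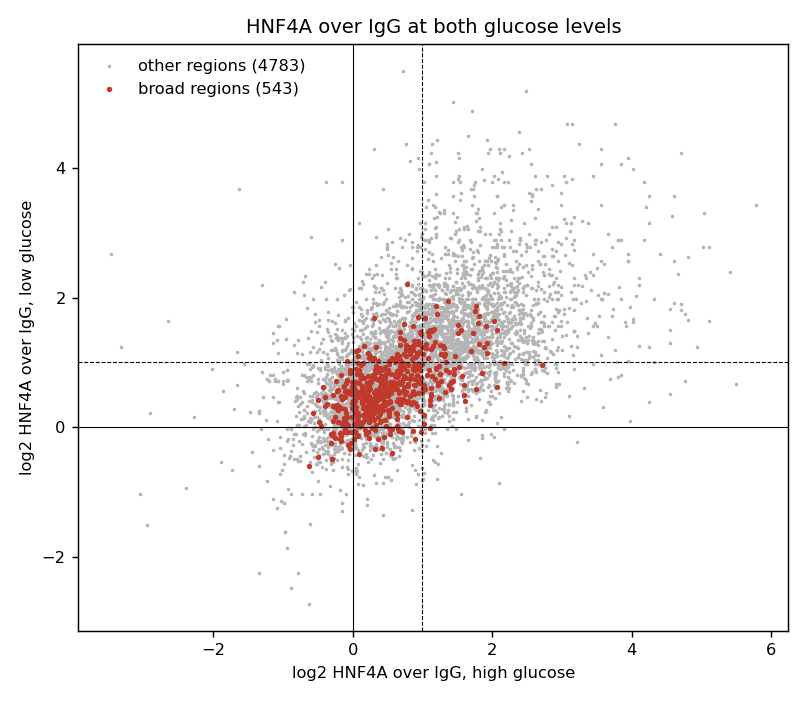
Each point is 1 region, with the log2 HNF4A over IgG ratio at high glucose on the x axis and at low glucose on the y axis; red points are the 543 broad regions, grey points the other 4783, and dashed lines mark 2-fold. The broad regions sit between -0.62 and 2.71 at high glucose and between -0.59 and 2.21 at low glucose, inside the spread of the other regions.

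The ratio was lower, and the IgG level higher, in each wider class of regions above 500 bp. At high glucose the median log2 ratio was 1.21 in the 2211 regions of 500 to under 1000 bp, 0.77 in those of 1000 to under 1500 bp and 0.57 in those of 1500 to under 2000 bp. Within the broad regions it was 0.46 for the 281 regions of 2000 to under 2500 bp, 0.44 for the 134 of 2500 to under 3000 bp and 0.38 for the 128 of 3000 bp or more. The shares at least 2-fold above IgG in the 3 broad classes were 20.3%, 13.4% and 8.59%. IgG reads per kb in the same 3 classes were 32.5, 34.2 and 38.6, against 17.6 in regions of 500 to under 1000 bp, while HNF4A reads per kb were 49.8, 49.7 and 56.5 against 43.2. The 276 regions under 500 bp broke this order, with a median ratio of -0.15 and 49.4 IgG reads per kb. The sources used here do not say how widths were set, and reads in these libraries may have set them. Across broad regions, width and HNF4A reads at high glucose had a Spearman rank correlation of 0.70 (n = 543 regions, a description, since wider regions collect more reads).

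**Figure D2:**
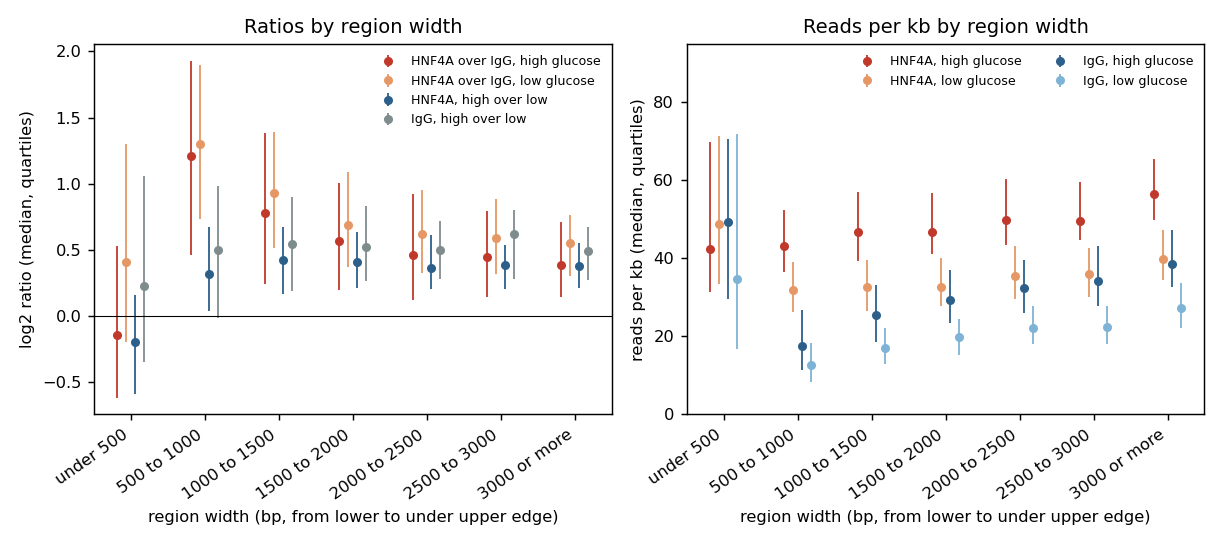
The left panel plots the median log2 ratios and the right panel the median reads per kb for 7 classes of region width in bp; bars span the quartiles over regions, which are not replicates. From 500 bp upward the HNF4A over IgG ratios go down and IgG reads per kb go up, while the ratios of high over low glucose stay near level.

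The regions just inside and just outside the width limit differed little in width, and most of their intervals overlapped at high glucose. Just inside lay the regions closest to PROCA1 and CLUH at 2001 bp and SIX5 at 2002 bp, with log2 ratios at high glucose of 0.68, 0.94 and 0.62. Just outside lay those closest to GRINA and ACTL10 at 1999 bp and ZNF584 at 1998 bp. They had 0.14 (-0.30 to 0.58), 0.20 (-0.23 to 0.65) and -0.01 (-0.46 to 0.46). At low glucose the ratios were 1.37, 1.69 and 0.82 inside and 0.44, 0.60 and 0.80 outside.

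The 6 highest ratios at high glucose lay closest to LOC101927901, an uncharacterised gene, PHLDA1, IGFBP3, SULT1C2, RPRD2 and MIR1288. The region closest to LOC101927901 (chr12:68141218-68143300) held 196 HNF4A and 27 IgG reads at high glucose and 67 and 34 at low glucose. Its log2 ratio was 2.71 (2.13 to 3.35) at high glucose and, at low glucose, 0.95 (0.34 to 1.59). The HNF4A library at high glucose stood far above the other 3 there. The region closest to PHLDA1, a pleckstrin homology-like domain protein, at chr12:76371448-76373544 held 160 HNF4A and 32 IgG reads at high glucose and 77 and 38 at low glucose. Its ratios were 2.18 and 0.99. IGFBP3, an insulin-like growth factor binding protein, had a region (chr7:46193573-46195630) with 98 and 21 reads at high glucose and 47 and 30 at low glucose, and ratios of 2.08 and 0.62. In all 3 the high glucose ratio exceeded the low glucose one, and the scaled IgG level was lower at high glucose. Picking regions by the high glucose ratio favours both. The intervals of IgG at high over low glucose included 0 in all 3.

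The regions closest to RPRD2, SULT1C2 and IGFBP4, whose promoters are printed above, were high at both glucose levels. At RPRD2, a binding partner of RNA polymerase II (chr1:150381583-150383964), HNF4A had 240 and IgG 53 reads at high glucose, and 120 and 38 at low glucose. The log2 ratios were 2.03 (1.60 to 2.49) and 1.63 (1.1 to 2.2). At SULT1C2, a sulfotransferase (chr2:108886641-108888930), the reads were 167 and 36 at high glucose and 75 and 26 at low glucose, with ratios of 2.07 and 1.5. Both regions therefore had several times as many HNF4A as IgG reads in either condition. At IGFBP4, also an insulin-like growth factor binding protein (chr17:38607703-38609952), the reads were 158 and 42 at high glucose and 100 and 27 at low glucose, with ratios of 1.77 and 1.86. MIR1288 (chr17:16200042-16202153) had ratios of 1.93 and 1.30.

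At low glucose the highest ratio was at EPS8L2 (chr11:705876-708401), an EPS8-like protein of the actin cytoskeleton. It held 120 HNF4A and 63 IgG reads at high glucose and 104 and 22 at low glucose, for ratios of 0.78 (0.33 to 1.25) and 2.21 (1.54 to 2.95). HNF4A was nearly level between the glucose conditions there, with a log2 high over low ratio of 0.07, and IgG differed, with 1.5. GPT, the alanine aminotransferase of liver (chr8:145727840-145729980), followed with 211 and 74 reads at high glucose and 141 and 36 at low glucose, and ratios of 1.37 and 1.94. TACO1, an activator of mitochondrial cytochrome oxidase translation, had 1.19 and 1.86, the serine protease gene PRSS48 had 1.75 and 1.79, and ATXN7L1 had 1.21 and 1.75. GPT, TACO1, IGFBP4, PRSS48 and ATXN7L1 were thus above 2-fold at both levels, and EPS8L2 at low glucose alone.

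The 42 regions above 2-fold at both glucose levels were at most 3564 bp wide and lay on 14 chromosomes. All had both intervals above 0, which the 2-fold limit nearly ensures at the read counts of broad regions. Examples picked after their values were seen are MVK (mevalonate kinase), FTH1 (ferritin heavy chain), ACY1 (an aminoacylase) and AQP1 (a water channel). The ratios at high and at low glucose were 1.16 and 1.52 for MVK, 1.46 and 1.1 for FTH1, 1.91 and 1.56 for ACY1 and 1.80 and 1.61 for AQP1. In the authors' deposited tables, 8 broad regions (1.47%) had p under 0.05 over IgG at both glucose levels, against 0.807% of all, those closest to RPRD2, ARHGEF2, IGFBP4, LINC00656, PRSS48, AQP1, ATXN7L1 and GPT. The lowest p of a broad region in the authors' deposited table was 0.000796 at LOC101927901 for high glucose and 0.00547 at ATXN7L1 for low glucose.

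At the other end, HNF4A was below IgG in 75 broad regions (13.8%) at high glucose, against 15.8% of all, and in 46 (8.47%) at low glucose, against 8.51%. It was below IgG at both glucose levels in 19 broad regions (3.50%), against 4.06% of all. The interval lay below 0 in 8 at high glucose (1.47%, against 2.07% of all) and in 7 at low glucose (1.29%, against 0.713%). It lay below 0 at both levels in 3 regions, closest to TFEC, LINC01393 and ZNF733P, and all 3 lie on chromosome 7. The region of TFEC, a transcription factor of the MiT family (chr7:115635425-115637443), held 142 HNF4A and 197 IgG reads at high glucose and 113 and 167 at low glucose. Its ratios of -0.62 (-0.94 to -0.30) and -0.59 (-0.95 to -0.24) were the lowest of any broad region at both levels. TAF6, a subunit of the general transcription factor TFIID, was low at high glucose alone, with -0.57 against 0.23 at low glucose. The same held for the zinc finger gene ZNF7, with -0.50 against 0.42, the centrosomal gene CEP131, with -0.48 against 0.08, and the mucin gene MUC12, with -0.45 against 0.02. SRGAP1, a GTPase activating protein of Slit and Robo signalling, had -0.29 and -0.49, and SAMHD1, a nucleotide triphosphate hydrolase, had -0.03 and -0.34, with intervals that included 0.

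Broad regions were gathered on few chromosomes. Chromosomes 1, 7, 8, 12, 17, 19 and 20 carried 445 of the 543 (82.0%), against 53.6% of the 5257 regions on chromosomes 1 to 22 and X outside the left-out stretch. Of the regions on chromosome 8, 19.4% were broad, on chromosome 7 18.5%, on chromosome 1 18.3% and on chromosome 12 14.9%. On chromosome 2 the share was 3.86%, on chromosome 5 1%, and chromosomes 13, 14 and 22 had 0 broad regions of 3, 57 and 67. IgG reads per kb in the other regions were mostly higher on chromosomes with a large share of broad regions, though not in one order with it. That median at high glucose was 25.6 on chromosome 8, 26.6 on chromosome 7, 27.5 on chromosome 12, 28.0 on chromosome 20 and 25.6 on chromosome 17. It was 15.1 on chromosome 5, 12.9 on chromosome 6, 14.0 on chromosome 14 and 16.7 on chromosome 22. Chromosome 11, with a share of 7.36%, had 25.3. Chromosomes 16, 2 and 3, with shares of 4.15%, 3.86% and 4.22%, had 23.7, 22.5 and 21.6. On chromosome 1 it was 22.2, as on X, where 2.86% of regions were broad, and on chromosome 19, with a share of 10.2%, it was 28.6. The sources used here do not give the copy number of these chromosomes in HCCLM3, and its part in the pattern was not tested.

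**Figure D3:**
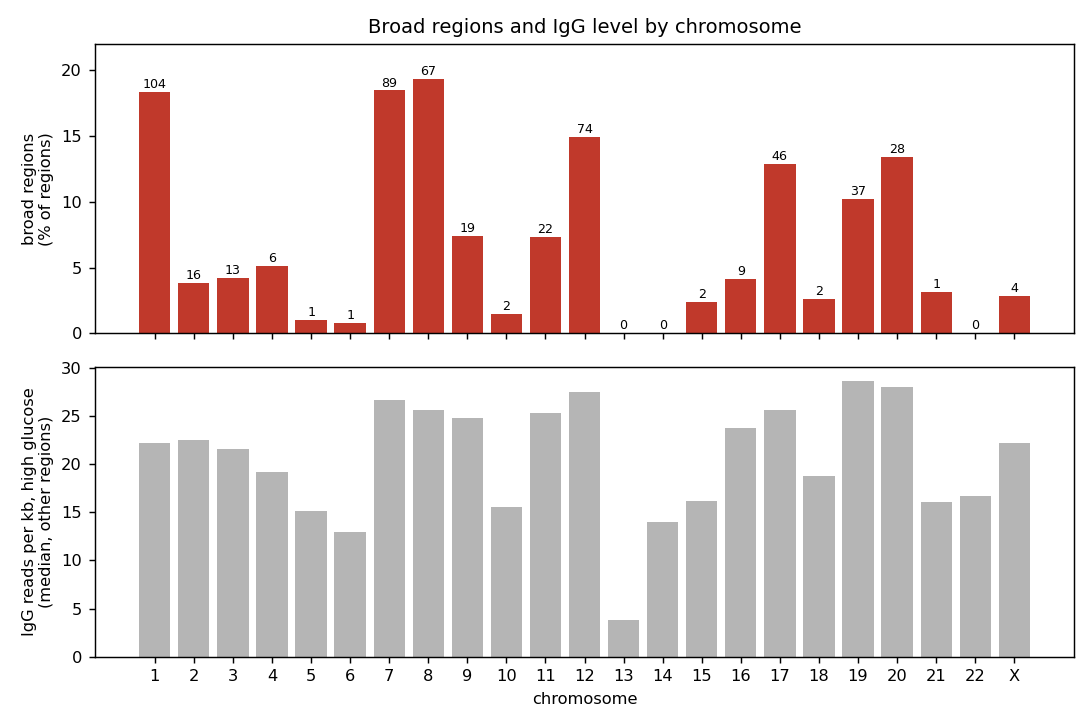
Upper bars give the broad regions as a percent of all regions on each chromosome, with the number of broad regions above each bar; lower bars give the median IgG reads per kb at high glucose of the other regions. Chromosomes 8, 7 and 1 have the tallest upper bars, with 67, 89 and 104 broad regions, and chromosomes 5 and 6 are low in both panels.

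A single window of 10 Mb, chromosome 1 from 150 to 160 Mb, held 89 broad regions, 16.4% of all of them, though it held 2.85% of all regions. Of its 150 regions 59.3% were broad, while 15 of the 417 other regions of chromosome 1 (3.60%) were. The window held 39 of the 128 broad regions of 3000 bp or more. Its IgG level at high glucose was 44.7 reads per kb in broad and 43.2 in narrower regions, against 20.02 in the other regions of chromosome 1. The median ratio of its broad regions was 0.21 at high and 0.40 at low glucose, and its narrower regions had 0.18 and 0.43. Broad and narrower regions of the window thus lay close together in IgG level and in ratio. Of its 89 broad regions, 6 at high and 5 at low glucose had at least 2-fold more HNF4A than IgG. The shares were 15.8% and 18.4% over all broad regions, and 41.6% and 46.8% over all regions. Without that window the median ratio of broad regions at high glucose was 0.51 in place of 0.43, and at low glucose 0.62 in place of 0.58.

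The next windows were chromosome 7 from 100 to 110 Mb with 37 broad of 89 regions, chromosome 8 from 140 to 150 Mb with 24 of 68, chromosome 7 from 90 to 100 Mb with 23 of 71 and chromosome 17 from 70 to 80 Mb with 22 of 99. The 10 windows with most broad regions held 49.0% of them and 16.8% of all regions, and 108 of 288 windows held at least 1. In 7 of the 15 windows with 10 or more broad regions, the median ratio at high glucose was lower in the broad than in the other regions, and at low glucose in 10 of 15. Among the 11 chromosomes with 10 or more broad regions, it was lower in 8 at high and 11 at low glucose. Inside these windows broad regions thus lay on either side of the others. Broad regions also lay close to other regions, at a median gap of 27.9 kb to the nearest region, against 68.1 kb for the others. Another broad region lay within 100 kb of 263 of them (48.4%), and any region within 100 kb of 451 (83.1%), against 60.01% of the other regions.

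Chromosome 1 from 150 to 160 Mb carries the S100 cluster of calcium-binding proteins, and 5 broad regions lay closest to its members, a group picked after the values were seen. At S100A10 (chr1:151964051-151968155), HNF4A had 325 and IgG 181 reads at high glucose, and 217 and 158 at low glucose. At S100A2 (chr1:153537766-153542165) the reads were 299 and 233 at high glucose and 223 and 172 at low glucose. The log2 ratios of the 5 regions ran from 0.19 at S100A13 to 0.74 at S100A6 at high glucose, and from 0.31 to 0.82 at low glucose, so none reached 2-fold. RUSC1 (chr1:155290087-155296179) in the same window was the third widest region at 6093 bp, with ratios of 0.08 and 0.47. PI4KB, a phosphatidylinositol kinase, was also there, with 5510 bp and ratios of 0.40 and 0.10.

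The 8 widest regions were mostly low in ratio. The widest, closest to LOC101927151 (chr19:27731814-27739723), spanned 7910 bp and held 4389 HNF4A and 3749 IgG reads at high glucose, and 3785 and 4095 at low glucose. Its ratios were 0.08 (0.02 to 0.14) and -0.14 (-0.20 to -0.08), near equality at this depth of reads. BRI3 (chr7:97909790-97916316), a membrane protein gene, spanned 6527 bp, with ratios of 0.37 and 0.27. FAM83C spanned 5875 bp with 0.36 and 0.15, SOGA1 5409 bp with -0.01 and 0.38, and PLOD3, a collagen lysyl hydroxylase, 5238 bp with 0.32 and 0.29. GAPDH, a glycolytic enzyme (chr12:6640545-6645730, 5186 bp), stood apart among the 8. HNF4A had 338 and IgG 149 reads there at high glucose and 204 and 133 at low glucose, for ratios of 1.04 (0.75 to 1.32) and 0.59 (0.27 to 0.92).

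In 17 broad regions IgG exceeded 60 reads per kb at high glucose, and there HNF4A lay on either side of IgG. These 17 were picked by the IgG level, which divides the ratio, so the choice itself favoured low ratios. Their ratios ran from -0.62 to 0.63 at high glucose, with a median of 0.09, and from -0.59 to 0.84 at low glucose, with a median of -0.08. At low glucose 11 of the 17 were below IgG, against 8.47% of broad and 8.51% of all regions. Within 20% of IgG at both levels were 6 of the 17. The 17 held 25.3% of the IgG reads of all broad regions at high and 34.5% at low glucose. Of the HNF4A reads they held 20.1% and 24.3%. The region closest to the pseudogene GUSBP4 (chr6:58776035-58779427) held 5882 HNF4A and 5242 IgG reads at high glucose and 5281 and 5864 at low glucose, for ratios of 0.02 and -0.18. ZNF733P, also a pseudogene (chr7:61968658-61971431), held 2137 and 2310 reads at high and 2024 and 2234 at low glucose, for ratios of -0.26 and -0.17. A region closest to the protein kinase gene ROCK1 (chr18:18515662-18520457) held 1629 and 1496 reads at high and 1576 and 1839 at low glucose, for ratios of -0.02 and -0.25. These 3 and LOC101927151 lie near the centromeres of their chromosomes, and their levels were high in all 4 libraries.

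Another 8 of the 17 lay on chromosome 7 from 114.6 to 115.6 Mb, next to the left-out stretch. MDFIC, an inhibitor of MyoD family factors, was closest to 3 broad regions there, with 103.5 to 222.5 HNF4A and 77.0 to 147.3 IgG reads per kb at high glucose. The highest (chr7:114561224-114565542) held 961 HNF4A and 636 IgG reads at high glucose and 732 and 568 at low glucose, with ratios of 0.45 and 0.34. The TFEC region given above, with 97.6 IgG reads per kb, was also among the 8. LINC01393 was closest to 5 broad regions, with 52.6 to 102.2 IgG reads per kb, so not all 5 were among the 17. Their ratios ran from -0.49 to 0.63 at high glucose and, at low glucose, from -0.46 to 0.20. In all 5 the scaled IgG level was lower at high glucose, with log2 ratios from -0.53 to -0.08, whereas over all broad regions its median was 0.52. LOC101927237 (chr4:68264037-68266913) was alike, with 968 HNF4A and 605 IgG reads at high and 822 and 819 at low glucose, and ratios of 0.53 and -0.02. Leaving out the 17 changed the medians over all broad regions from 0.43 to 0.46 at high glucose and from 0.58 to 0.59 at low glucose.

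HNF4A and IgG were both higher at high glucose in most broad regions. The median log2 ratio of high over low glucose was 0.37 for HNF4A and 0.52 for IgG, against 0.36 and 0.51 over all regions. HNF4A was higher at high glucose in 510 broad regions (93.9%), against 81.8% of all, and IgG in 487 (89.7%), against 77.9%. Both were higher in 460 (84.7%), against 64.6% of all. HNF4A was higher and IgG lower in 50 (9.21%), against 17.2% of all. At least 2-fold, HNF4A was higher in 11 broad regions (2.03%), against 6.78% of all, and lower in 0, against 0.713%. IgG was at least 2-fold higher in 40 (7.37%), against 19.4% of all, and lower in 1 (0.184%), at TPTE, against 3.38%. The interval lay above 0 for HNF4A in 263 broad regions (48.4%), against 25.8% of all, and for IgG in 290 (53.4%), against 26.2%. With more reads in broad regions, the median span of these intervals was 0.79 against 1.34 over all regions for HNF4A. For IgG it was 0.998 against 1.93. The larger interval shares and the smaller 2-fold shares both stood beside near equal medians. They thus show neither a larger nor a smaller difference in broad regions. Of the 263, IgG also had its interval above 0 in 142, a share close to the 53.4% of all broad regions. Region by region, the HNF4A difference and the IgG difference had a Spearman rank correlation of 0.06 (n = 543 regions, a description). The size of one thus showed little relation to the size of the other.

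The ratio over IgG was higher at high glucose in 200 broad regions (36.8%), against 41.7% of all, and the median difference was -0.12, against -0.15. With each region's IgG reads subtracted first, the median log2 HNF4A ratio of high over low glucose was 0.19 over the 441 broad regions that could be scored, against 0.31 over 4245 of all. HNF4A was then at least 2-fold higher in 92 of the 441 (20.9%), against 22.6% of all, and at least 2-fold lower in 67 (15.2%), against 13.5%. Centred on the median of all regions, the median of broad regions was 0.02 for HNF4A and 0.01 for IgG. In the authors' deposited table of HNF4A at high over low glucose, p was under 0.05 in 17 broad regions (3.13%) with HNF4A higher, against 4.39% of all, and in 0 with HNF4A lower, against 0.225%. The lowest p of a broad region in the authors' deposited table was 0.00243, at LOC100289230, with a false discovery rate of 0.914.

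**Figure D4:**
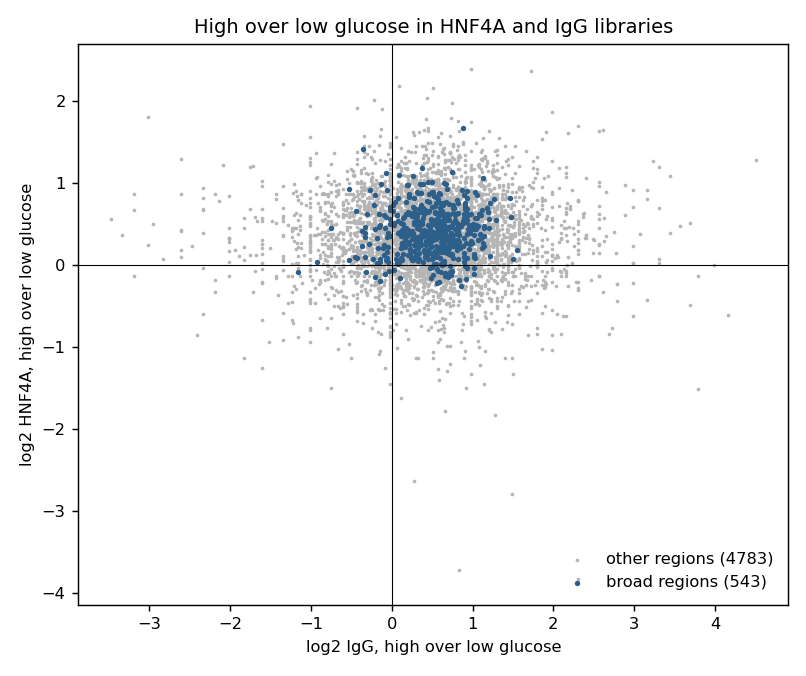
Each point is 1 region, with the log2 ratio of high over low glucose for IgG on the x axis and for HNF4A on the y axis; blue points are the 543 broad regions and grey points the other 4783. Most broad regions, 460 of 543, lie in the upper right part, where both HNF4A and IgG were higher at high glucose.

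Among the 11 regions at least 2-fold higher for HNF4A, LOC100289230 (chr5:98263577-98265657) came first, with 112 HNF4A reads at high and 32 at low glucose and 43 and 23 IgG reads. Its log2 ratio was 1.67 (1.09 to 2.29) for HNF4A and 0.89 (0.12 to 1.68) for IgG. LOC101927901 followed with 1.41 for HNF4A and -0.35 for IgG. At EHF, an epithelial ETS factor (chr11:34675142-34677398), HNF4A had 150 reads at high and 60 at low glucose and IgG 51 and 39, for ratios of 1.19 and 0.37. JMJD6, a Jumonji family oxygenase, had 1.14 for HNF4A and 0.74 for IgG. PRUNE had 1.12 and -0.06, and CREB3, a transcription factor anchored in the endoplasmic reticulum, had 1.1 and 0.09. HNF4A thus differed by 2-fold at LOC101927901, PRUNE and CREB3 where IgG was near level or lower, and at LOC100289230 and JMJD6 where IgG was higher as well. IgG was at least 2-fold higher in 1 of the 11, LHX1. All 11 were narrower than 3000 bp.

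The lowest HNF4A ratios of high over low glucose were close to 0, and each interval included 0. They were -0.26 at ZNF274, a zinc finger gene, -0.22 at CNPY2, -0.20 at ARPC1B, a subunit of the actin-nucleating Arp2/3 complex, -0.20 at a region of MDFIC, -0.18 at RNF19A, a ubiquitin ligase, and -0.17 at ZNF592. IgG at the same regions was higher at high glucose at ZNF274 (0.86), CNPY2 (0.56), ARPC1B (0.58), RNF19A (0.83) and ZNF592 (0.92), and lower at MDFIC (-0.15). At ZNF274 (chr19:58693338-58695540) HNF4A had 100 reads at high and 109 at low glucose and IgG 86 and 47, so the ratio over IgG was 0.07 at high and 1.19 at low glucose.

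The difference of the 2 ratios over IgG, chosen after the data were seen, was highest at LOC101927901 (1.76), IGFBP3 (1.45) and VHLL (1.21), and among the lowest at EPS8L2 (-1.43) and HDAC7 (-1.12). At VHLL, a gene like the von Hippel-Lindau tumour suppressor (chr1:156271191-156273255), HNF4A had 122 reads and IgG 36 at high glucose, and 81 and 60 at low glucose. IgG differed more between the glucose levels there than HNF4A did.

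Of 438 genes in 15 lists, 137 were closest to a region and 21 to a broad one, with 22 broad regions of the lists' 196 (11.2%), against 10.3% of the 5257 regions above. All 22 lay above IgG at both glucose levels, as did 441 broad regions (81.2%) and 79.7% of all. At each level 5 of the 22 were at least 2-fold above it, where 15.8% of broad and 41.6% of all regions were at high glucose and 18.4% and 46.8% at low glucose. Their median ratios were 0.60 at high and 0.72 at low glucose, against 0.43 and 0.58 over broad regions. Over all regions, 501 of the 4323 distinct closest genes had a broad one, the background for the gene counts per list. The 7 liver transcription factors and the 9 fatty acid metabolism genes with a region had none that was broad, and neither did HNF4A itself. The 1 blood and stroma marker and the 7 neuron and muscle markers with a region had 0 broad regions as well. These 4 lists had only 8, 11, 1 and 10 regions, too few to set 0 apart from a share of 10.3%.

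In glycolysis, 2 of 12 genes with a region had a broad one: GAPDH, given above, and TPI1, the triose phosphate isomerase. At TPI1 (chr12:6976392-6979168) HNF4A had 121 and IgG 75 reads at high glucose and 99 and 55 at low glucose, with ratios of 0.54 and 0.82. In gluconeogenesis and glycogen, 2 of 5 genes had one: GPT and PYGB, the brain-type glycogen phosphorylase. PYGB had 2 broad regions, with ratios of 0.12 and 0.76 at chr20:25227181-25229796 and 0.68 and 0.84 at chr20:25288707-25291719. GPT was the highest of these at low glucose and the 1 above 2-fold at both levels. In 0 of the 5 regions of both lists was HNF4A 2-fold higher at high glucose, against 2.03% of broad and 6.78% of all regions. So few regions cannot set 0 apart from those shares. The HNF4A ratio of high over low glucose in the 5 ran from -0.16 to 0.59.

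In the AMPK and mTOR list, 2 of 20 genes with a region had a broad one. PRKAB2, a regulatory subunit of AMPK (chr1:146642344-146645495), had 174 HNF4A and 133 IgG reads at high and 148 and 90 at low glucose, with ratios of 0.24 (-0.09 to 0.58) and 0.69 (0.30 to 1.09). AKT1S1, an mTORC1 inhibitor (chr19:50378987-50381784), had 134 and 103 reads at high and 90 and 63 at low glucose, with 0.23 (-0.15 to 0.62) and 0.49 (0.01 to 0.98). In both, the interval included 0 at high glucose and lay above it at low glucose. Whether the ratios differed between glucose levels was not tested.

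Of the liver metabolism lists, CYP27A1, a sterol hydroxylase of bile acid synthesis (chr2:219645645-219647742), had 94 HNF4A and 39 IgG reads at high and 54 and 38 at low glucose, with ratios of 1.12 and 0.48. TRIB1, a pseudokinase that lowers plasma lipids (chr8:126440876-126443231), had 151 and 88 at high and 77 and 75 at low glucose, with 0.63 and 0.01. TRIB1 was thus above IgG at high glucose and level with it at low glucose in this region. TRIB1 was also closest to 6 narrower regions, with ratios from 0.85 to 1.99 at high and from 0.48 to 2.18 at low glucose, all above those of the broad region.

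Of the 14 chromatin regulators with a region, 6 had a broad one, against 501 of 4323 genes over all regions. Of the list's 18 regions 33.3% were broad, against 10.3%, and whether so small a list differs was not tested. KDM6B, a histone H3 lysine demethylase (chr17:7744870-7747679), was the highest at high glucose, with 160 HNF4A and 53 IgG reads and a ratio of 1.45 (0.99 to 1.92), and 104 and 58 reads and 0.82 at low glucose. HDAC7, a histone deacetylase (chr12:48212614-48214754), was the highest at low glucose, with 103 and 45 reads and 1.17, and had 105 and 92 reads and 0.04 at high glucose. NCOA2, a nuclear receptor coactivator, had 0.77 and 0.76. EZH2, the Polycomb methyltransferase, had 0.56 and 0.30, and DNMT3B, a DNA methyltransferase, 0.09 and 0.05. The intervals of DNMT3B included 0 at both glucose levels.

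The epithelial and mesenchymal list had 3 of 9: KRT18, a keratin of simple epithelia, with 0.75 and 0.54, CLDN4, a tight junction claudin, with 0.57 and 0.66, and SKIL, a repressor of SMAD signalling, with 0.81 and 1.23. The SKIL broad region (chr3:170073951-170076569) held 142 HNF4A and 73 IgG reads at high and 98 and 41 at low glucose. A narrower region of 771 bp closest to SKIL held 109 and 3 reads at high and 50 and 5 at low glucose, so few IgG reads support its higher ratio. Other list members were ERBB3, a receptor tyrosine kinase, with 0.73 and 1.13, LRP6, a Wnt coreceptor, with 0.35 and 0.74, MCL1, an antiapoptotic BCL2 relative, with 0.34 and 0.31, and LHX1, a LIM homeobox factor, with 1.52 and 1.58. LHX1 (chr17:35291989-35294054) had 133 HNF4A and 42 IgG reads at high and 58 and 19 at low glucose, so both libraries were higher at high glucose, by 1.06 and 1.13 on the log2 scale.

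**Figure D5:**
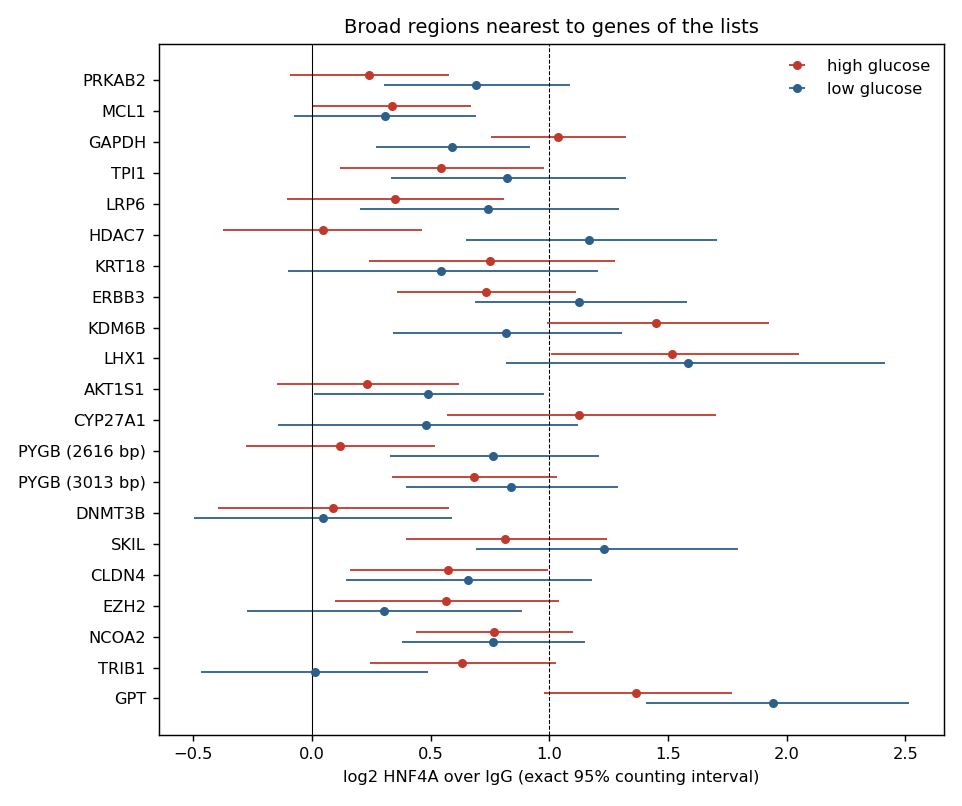
Points give the log2 HNF4A over IgG ratio of 21 of the 22 broad regions closest to genes of the lists, red at high and blue at low glucose, with exact 95% counting intervals as bars; the dashed line marks 2-fold. All 21 lie above 0 at both glucose levels, from 0.04 at HDAC7 to 1.52 at LHX1 at high glucose and from 0.01 at TRIB1 to 1.94 at GPT at low glucose.

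The 543 regions were closest to 501 distinct genes where a gene was listed, of which 471 had 1 broad region, 23 had 2 and 7 had at least 3. LMNA, the gene of the nuclear lamins A and C, had 5 within 56.1 kb (chr1:156051906-156108006), with 49.8 to 70.4 HNF4A and 39.3 to 57.9 IgG reads per kb at high glucose. Their ratios ran from -0.02 to 0.20 at high and from 0.21 to 0.76 at low glucose, so each ratio was higher at low glucose. HNF4A and IgG reads themselves were higher at high glucose in all 5, by 0.19 to 0.56 and 0.22 to 1.20 on the log2 scale. A ratio higher at high glucose was seen in only 36.8% of broad and 41.7% of all regions. NAMPT, an enzyme of NAD synthesis, had 4 over 166.5 kb of chromosome 7, with ratios from 0.27 to 1.26 at high and from -0.0045 to 0.82 at low glucose. PHLDA1 had 3, with 0.46 to 2.18 and 0.34 to 0.99, and in each HNF4A was higher at high glucose, by 0.73 to 0.92. LINC00656, a long noncoding RNA, had 3 within 22.1 kb of chromosome 20, with ratios from 1.27 to 1.56 at high glucose and from 0.89 to 1.49 at low glucose. MIR4470 had 3 on chromosome 8, with 0.68 to 1.03 and 0.05 to 0.39. Every broad region of LINC00656 was above 2-fold at high glucose and none of LMNA was at either level, while those of NAMPT and PHLDA1 lay on both sides of 2-fold at high glucose.

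Of the 501 genes, 129 were also closest to a narrower region. In 91 of the 129 the narrower regions had the higher ratio at high glucose, with medians of 1.06 against 0.57 for the broad ones, and at low glucose in 84, with 0.79 against 0.62. IgG reads per kb were higher in the narrower regions of 41 genes, with medians of 25.3 against 31.8. The lower ratio of broad regions was therefore present among regions that share a closest gene.

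RefSeq matched 491 of the 501 genes (98.0%), of which 434 (88.4%) were protein coding, 34 (6.92%) long noncoding and 20 (4.07%) microRNA genes, near the 87.3%, 7.26% and 3.22% over all regions. The median ratio at high glucose was 0.87 in the 23 broad regions closest to a microRNA gene, 0.58 in the 42 closest to a long noncoding RNA and 0.40 in the 465 closest to a coding gene. At low glucose the medians were 0.62, 0.58 and 0.57. At least 2-fold above IgG at high glucose were 8 of the 23, 10 of the 42 and 66 of the 465, against 15.8% of broad and 41.6% of all regions. At low glucose the counts were 8, 12 and 78, against 18.4% and 46.8%. With 23 microRNA regions, whether the groups differ was not tested. MIRLET7A1, of the let-7 family (chr9:96927759-96929948), had 163 HNF4A and 82 IgG reads at high and 82 and 39 at low glucose, with ratios of 0.84 and 1.05. MIR92B (chr1:155163990-155166563) had 127 and 141 reads at high and 85 and 91 at low glucose, with -0.30 and -0.12. The microRNA regions thus ran from below IgG to well above it, and these 2 examples were picked after their values were seen.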

How the data were processed

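HNF4A and IgG ChIP-seq libraries of HCCLM3 cells at high and at low glucose were compared, 1 library per group. The submitters' processing notes name hg19 as the build and list HOMER, DiffBind, MACS, Bowtie 1.1.2 and bcl2fastq. The sources used here give neither their settings nor the origin of the region borders nor the total depth. Per the file headers, each of the 3 deposited tables gives the closest gene, false discovery rate, p-value, fold and levels of every region. The authors' levels are log2 scaled reads, and the authors' fold is a difference of log2 levels. The authors' p-values and false discovery rates were used as deposited, and how they were obtained with 1 library per group is not given.

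On the linear scale, 100% of levels were whole multiples (within 0.01) of a step that each library has. Dividing by the step gave the reads and relative library sizes, and ratios recomputed from them equalled the deposited folds. Intervals are exact 95% Clopper-Pearson intervals on the reads of 2 libraries, computed with scipy 1.17.1. PCR copies (15 cycles) are not independent molecules. The calculation was tested on simulated reads. Reads per kb are unscaled reads over region width. In the table of HNF4A alone, the high glucose side was found as the one whose reads equal those of the high glucose table.

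With 1 library per group no test was run. Counts past 2-fold, counts of intervals above or below 0 and medians stand beside the same over all 5326 regions. Regions are not replicates. Named regions are the 8 widest, the 6 highest and 6 lowest of each ratio, the 6 with most HNF4A and most IgG reads per kb, genes with at least 3 broad regions, up to 4 members of each list with HNF4A itself, and 3 on either side of the width limit. Of the chromatin regulators 5 are given, which goes past the limit of 4. Some regions that the rule names are not reported here. The members and the 15 lists were chosen with earlier results of these data known. Promoters are from RefSeq on GRCh38.p14. Alternatives changed the fold limit, the width limit, the centring, the read minimum, an added read, 1 region per gene and subtraction of IgG.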

Additional observations from a re-analysis of the deposited data

How the results depend on the processing

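Of 70 alternative values of 8 results, 45 kept their direction and stayed close, 23 moved and 2 reversed. Centred on the median of all regions, the median log2 HNF4A over IgG ratio was -0.36 at high and -0.36 at low glucose, by construction relative to the other regions, the medians of high over low glucose were 0.0184 for HNF4A and 0.0147 for IgG, and the counts at 2-fold were 13, 2, 2 and 1. These counts, and those that follow, are in the order HNF4A over IgG at high glucose, the same at low glucose, HNF4A high over low and IgG high over low. At a fold limit of 1.5 they were 220, 269, 130 and 233. At a width limit of 1500 bp they were 261, 303, 45 and 137, with medians over IgG of 0.52 and 0.63. At 3000 bp they were 11, 12, 0 and 5. With IgG subtracted, 92 regions were at least 2-fold higher for HNF4A at high glucose, with a median of 0.19. Without chromosome 1 from 150 to 160 Mb, an alternative added after seeing the data, the median at high glucose over IgG was 0.51. A read minimum of 10, 1 added read, 1 region per closest gene, and leaving out regions above 60 IgG reads per kb (also added) moved none of the 8. No paired analysis was possible because each group has 1 library. For the same reason no library could be left out. Depth limits single regions: the counting interval of a broad region spanned a median of 0.82 at high and 0.99 at low glucose on the log2 scale.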
